A study of Mus musculus with 6 samples.

Results

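The genes described here are 47 type I interferon-stimulated genes, taken by symbol from a list of 48 names in which Rigi and Ddx58 name 1 gene. All 47 had a row among the 17217 rows of the expression table, with RIG-I under its older symbol Ddx58. RNA of mouse bone marrow-derived macrophages was sequenced in 6 libraries. The 3 Knockout libraries came from CD74-/- cells and the 3 Control libraries from CD74+/+ cells, per the series' design text. In both groups, per the labels' protocols, marrow cells from the femurs of 8-week-old mice were grown in medium with 30 ng/mL M-CSF, which drives macrophage differentiation, and exposed to 100 ng/mL lipopolysaccharide (LPS) for 24 h. There was no group without LPS. The protocol text names wild-type mice alone, and neither a strain nor a count of animals is given, so p-values measure the spread between libraries, which may be technical. The labels place all Knockout libraries in batch 2 and all Control libraries in batch 1. Effects of batch and of genotype therefore cannot be told apart in any comparison below.

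LPS acts on Toll-like receptor 4, which signals through the adaptors MyD88 and TRIF. The TRIF branch activates the kinase TBK1 and the factor IRF3 and leads macrophages to secrete interferon-beta. Secreted interferon binds the receptor of IFNAR1 and IFNAR2 on the same and neighbouring cells, and the kinases JAK1 and TYK2 then activate factors of the STAT family. With IRF9, STAT2 enters the complex ISGF3, which binds the interferon-stimulated response element in promoters of antiviral genes. The genes fall into sensors of viral RNA, factors that keep the response going, the ubiquitin-like ISG15 and its enzymes, and effectors that block replication of viruses.

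Values are TPM, a level per transcript length that can be compared between genes. The libraries held 51726646 to 59236599 reads recovered from the TPM in Knockout and 36445462 to 52517056 in Control. Cd74 stood at 65.3, 64.6 and 63.1 TPM in Knockout replicates 1 to 3, against 632, 593 and 594 TPM in Control replicates 1 to 3. Its row was 1 of 28 that were not whole numbers of reads in all 6 libraries at any gene length. With its annotated length, Cd74 came to non-whole reads in Knockout and to whole reads in Control, so the size of the difference is uncertain and these values do not check the genotype label on counted reads. Of the 28 rows 27 had an annotated length, and at it Control was whole and Knockout was not in 21, neither was whole in 6, and the reverse occurred in 0. In all 28 rows every Knockout value lay below every Control value. None of the 47 interferon-stimulated genes was among those 28 rows. Of 12 macrophage markers 7 had a row, with a summed level of 13941 to 15190 TPM in Knockout and 10596 to 11142 TPM in Control, whereas C1qa, C1qb, C1qc, Mertk and Maf had none. Markers of other cells stayed low, with summed levels of 23.8 to 29.3 TPM in Knockout and 17.6 to 18.1 TPM in Control for 3 of 8 neutrophil genes with a row. The highest sum of the remaining lists (dendritic, B, T and NK, mast, erythroid and stromal cells) was 14.7 TPM in Knockout and 31.2 TPM in Control, where Hdc was the 1 of 4 mast cell genes with a row. Among all these markers, the macrophage genes Lyz2, Csf1r and Itgam, with S100a8 and Ighm, were called higher. The macrophage gene Adgre1, with Csf3r, Lck and Hdc, was called lower. S100a8 (log2 fold change 1.73) and Hdc (-1.73) changed more than any of the 47 genes. Within the neutrophil sum, S100a8 had means of 19.0 TPM in Knockout and 5.01 TPM in Control. Csf3r went the other way, with 7.39 TPM in Knockout and 11.9 TPM in Control. Csf1r had means of 246 TPM in Knockout and 144 TPM in Control. Lyz2 was the largest part of the macrophage sum, with means of 8658 TPM in Knockout and 5373 TPM in Control. Adgre1 had means of 332 TPM in Knockout and 489 TPM in Control. The part of these markers in the results was not tested. Erythroid and stromal genes reached at most 0.307 and 0.622 TPM in any library. Liver transcripts, chosen after their values were seen, marked 1 library, with Alb at 22.4 TPM in Control replicate 1 and at most 0.871 TPM in the other 5.

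The interferon-stimulated genes did not move as a block. Levels were compared with limma on log2(TPM + 1) over 13034 rows, where a gene counts as called at a Benjamini-Hochberg adjusted p under 0.05. Of the 47 genes 19 were called higher in Knockout, or 40.4%, against 18.5% of all tested rows, and 7 were called lower, or 14.9%, against 10.1%. The other 21 were not called. The median log2 fold change was 0.14 for the 47 genes and 0.04 for all tested rows. Scaling by median of ratios moved the split over all rows to 1815 higher and 1757 lower, against 2406 higher and 1313 lower as deposited, and gave 18 higher and 7 lower among the interferon-stimulated genes. Upper-quartile scaling gave 1872 and 1708 over all rows, and 15 and 7 among these genes. The values of Knockout and Control did not overlap for 31 of the 47 genes (66.0%), 21 higher and 10 lower, against 50.0% of all tested rows, 30.2% higher and 19.8% lower. Changes were small. Only Rsad2 reached 1 on the log2 scale, and Ifi44l came next at 0.96. In bulk RNA, fewer responding cells and less RNA per cell cannot be told apart. The genes and their roles were chosen with earlier results of these data known. Shares by role below therefore describe small groups of genes and test nothing about a role.

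**Figure D1:**
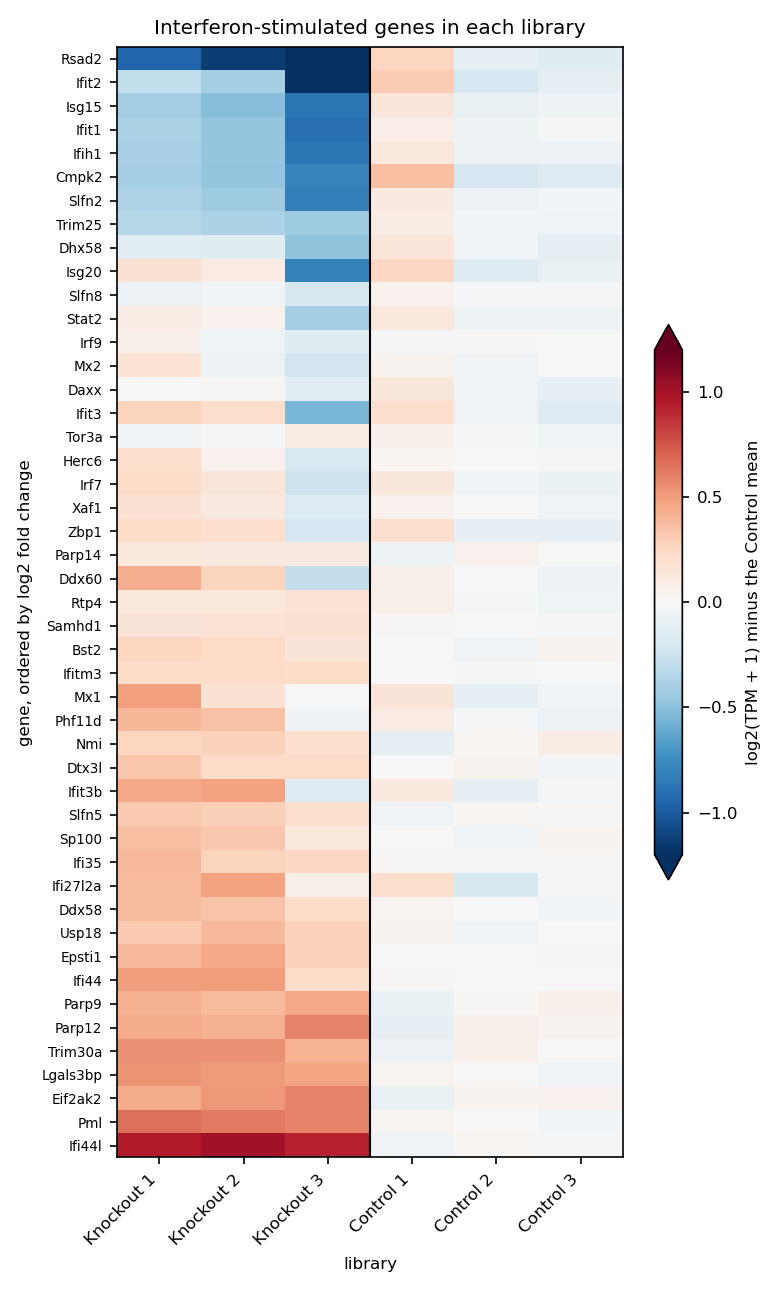
Heat map of the 47 genes (rows, ordered by log2 fold change) in the 6 libraries (columns, Knockout left of Control), coloured by log2(TPM + 1) minus the gene's Control mean. A block of genes led by Rsad2 is blue in all 3 Knockout libraries and deepest in replicate 3, a block ending in Ifi44l is red in all 3, and the genes between differ most in Knockout replicate 3.

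The largest fall was in Rsad2, which encodes viperin, a radical SAM enzyme that makes a chain-terminating nucleotide. Rsad2 had 316, 277 and 145 TPM in Knockout replicates 1 to 3, against 729.9, 563 and 552 TPM in Control replicates 1 to 3. Every Knockout value lay below every Control value, and the lowest Knockout value was in replicate 3 (log2 fold change -1.38, SE 0.28, limma adjusted p = 0.0123). Cmpk2, a mitochondrial nucleotide kinase gene that supplies viperin's substrate and is the next coding gene to Rsad2 on chromosome 12, had 59.5, 56.5 and 44.8 TPM in Knockout and 102, 68.3 and 70.4 TPM in Control. Its groups did not overlap and it was called lower (-0.56, SE 0.17, limma adjusted p = 0.0452). That call was lost when any 1 of the 6 libraries was left out, with fold changes of -0.66 to -0.38.

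Other enzymes and membrane proteins of this antiviral group went the other way or were not called. Ifitm3, which blocks fusion of viruses in endosomes, was the most abundant of the 47 genes. It had 4656, 4689 and 4656 TPM in Knockout and 4026, 3976 and 4018 TPM in Control. The replicates lay close together and apart by group, a rise of 0.22 on the log2 scale (SE 0.04, limma adjusted p = 0.00844). Bst2, or tetherin, which holds budding virions at the cell surface, had 1378, 1361 and 1281 TPM in Knockout and 1154, 1117 and 1182 TPM in Control (0.22, SE 0.05, limma adjusted p = 0.0160). Samhd1, a phosphohydrolase that depletes deoxynucleotides, had 86.0, 87.1 and 87.3 TPM in Knockout and 77.6, 76.8 and 76.4 TPM in Control (0.17, SE 0.04, limma adjusted p = 0.0208). For both genes every Knockout value was above every Control value. Bst2 lost its call without Knockout replicate 1 (limma adjusted p = 0.0504), Knockout replicate 2 (0.0607) or Control replicate 2 (0.0533), and under upper-quartile scaling (0.0570). Samhd1 lost it without Knockout replicate 2 (limma adjusted p = 0.0747), Control replicate 2 (0.0648) or Control replicate 3 (0.0792) and under both scalings.

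The dynamin-like GTPase genes Mx1 and Mx2, which trap viral nucleocapsids, were low. Mx1 was the lowest of the 47, at 3.88, 2.95 and 2.48 TPM in Knockout and 2.87, 2.21 and 2.38 TPM in Control. Mx2 had 22.9, 19.4 and 17.2 TPM in Knockout and 20.9, 19.6 and 20.3 TPM in Control. The groups overlapped for both and neither was called (limma adjusted p = 0.329 for Mx1 and 0.796 for Mx2). Many inbred laboratory mice carry a defective Mx1 allele, and the strain is not stated here. Rtp4, a receptor transporter protein gene with antiviral activity, had 154, 153 and 158 TPM in Knockout and 147, 139.7 and 135 TPM in Control. Its groups did not overlap, yet it was not called (0.14, SE 0.05, limma adjusted p = 0.0671).

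**Figure D2:**
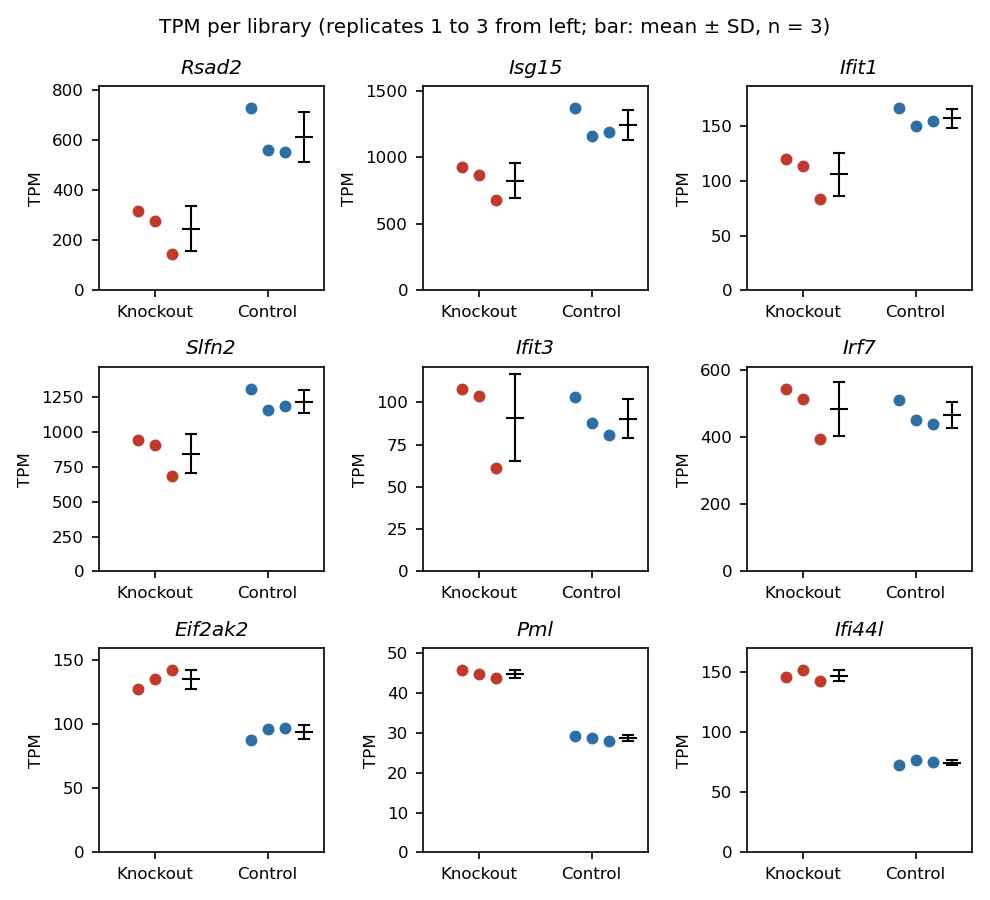
TPM of 9 of the genes in each library, with Knockout (red) left of Control (blue), replicates 1 to 3 from left to right, and black bars for the mean and SD of 3 libraries. Rsad2, Isg15, Ifit1 and Slfn2 are lower and Eif2ak2, Pml and Ifi44l higher in every Knockout library, while Ifit3 and Irf7 have Knockout replicate 3 below and the other Knockout replicates above the Control values.

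Among effectors that act on RNA and translation, 2 of 9 were called higher and 2 lower, beside 18.5% and 10.1% of all tested rows. The Ifit proteins bind foreign RNA ends and block its translation, and their genes form 1 cluster on chromosome 19. Ifit1 had 120.5, 114 and 83.8 TPM in Knockout and 167, 150.3 and 155 TPM in Control. All Knockout values lay below the Control values (-0.58, SE 0.13, limma adjusted p = 0.0173). Without Control replicate 1 the adjusted p of Ifit1 in limma was 0.0637, and without Control replicate 3 it was 0.0544. Ifit2 had 113, 105 and 59.9 TPM in Knockout and 171, 120.1 and 128 TPM in Control. The groups did not overlap but the spread within each was wide, and it was not called (-0.63, SE 0.24, limma adjusted p = 0.0930).

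The other Ifit genes did not follow. Ifit3 had 108, 104 and 61.2 TPM in Knockout and 103, 87.6 and 80.6 TPM in Control (-0.02, SE 0.21, limma adjusted p = 0.942). Ifit3b had 25.9, 26.3 and 16.5 TPM in Knockout and 20.2, 17.2 and 18.4 TPM in Control (0.26, SE 0.17, limma adjusted p = 0.281). In both genes Knockout replicate 3 lay below every Control value and the other Knockout replicates lay above every Control value. Ifit3 and Ifit3b are close copies, so reads may have been divided between them. Without Knockout replicate 3, Ifit3b was called higher (0.47, limma adjusted p = 0.00730), while Ifit3 was not (0.24, limma adjusted p = 0.133).

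Eif2ak2 encodes PKR, the kinase that stops translation on binding double-stranded RNA. It had 127, 135 and 142 TPM in Knockout and 87.7, 96.3 and 97.1 TPM in Control. The groups were well apart (0.52, SE 0.06, limma adjusted p = 0.00307). Isg20, an exonuclease gene, had 74.6, 70.4 and 37.1 TPM in Knockout and 78.1, 59.0 and 61.7 TPM in Control. Its groups overlapped, with Knockout replicate 3 the lowest of the 6 (-0.18, SE 0.26, limma adjusted p = 0.633).

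Schlafen genes, whose products include regulators of tRNA and of lymphocyte growth, lie near each other on chromosome 11 and differed in direction. Slfn2 had 939, 905 and 682 TPM in Knockout and 1308, 1155 and 1183 TPM in Control (-0.54, SE 0.12, limma adjusted p = 0.0173). Slfn5 had 96.9, 94.9 and 90.0 TPM in Knockout and 75.7, 79.0 and 78.6 TPM in Control (0.27, SE 0.05, limma adjusted p = 0.00914). Each had groups that did not overlap, Slfn2 lower and Slfn5 higher in Knockout. Slfn8, which lies between them, had 20.9, 21.6 and 19.2 TPM in Knockout and 22.8, 21.6 and 21.7 TPM in Control. It was not called (-0.10, SE 0.06, limma adjusted p = 0.274). Slfn2 lost its call without Control replicate 1 (limma adjusted p = 0.0637) or Control replicate 3 (0.0523).

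Of 6 genes of viral RNA or nucleic acid sensing 1 was called higher and 2 lower, beside 18.5% and 10.1% of all tested rows. Ifih1 encodes MDA5, the sensor of long double-stranded RNA. It had 77.3, 73.0 and 55.0 TPM in Knockout and 111, 97.0 and 96.6 TPM in Control. The groups did not overlap (-0.57, SE 0.13, limma adjusted p = 0.0167), and the call was lost without Control replicate 1 (-0.51, limma adjusted p = 0.0613). Ddx58 encodes RIG-I, the sensor of RNA with a 5′-triphosphate end. It had 119, 116 and 106 TPM in Knockout and 92.8, 91.4 and 88.7 TPM in Control, a change opposite to that of Ifih1 with no overlap (0.32, SE 0.06, limma adjusted p = 0.00819). Trim25, a ubiquitin ligase gene linked to RIG-I signalling, had 335, 326 and 315 TPM in Knockout and 451, 414 and 409.9 TPM in Control. This was the fall with the smallest standard error (-0.38, SE 0.05, limma adjusted p = 0.00454).

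Dhx58, which encodes LGP2, a helicase of the same family without the signalling domain, had 64.9, 63.8 and 50.3 TPM in Knockout and 78.3, 69.2 and 65.6 TPM in Control. Its groups did not overlap and it was not called (-0.25, SE 0.11, limma adjusted p = 0.126). Zbp1, a sensor of Z-form nucleic acid that triggers necroptosis, had 74.6, 73.6 and 55.1 TPM in Knockout and 73.6, 59.6 and 59.7 TPM in Control. The helicase gene Ddx60 had 19.5, 17.2 and 11.4 TPM in Knockout and 14.8, 14.2 and 13.5 TPM in Control. Zbp1 (limma adjusted p = 0.731) and Ddx60 (0.576) had overlapping groups, and Ddx60 was called higher without Knockout replicate 3 (0.35, limma adjusted p = 0.0185).

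The transcription factors of the feedback loop showed no call. Irf7, the amplifier of interferon-alpha genes, had 545, 516 and 394 TPM in Knockout and 513, 451 and 441 TPM in Control (0.04, SE 0.12, limma adjusted p = 0.833), and its sign turned under both scalings. Stat2 had 66.7, 65.0 and 46.9 TPM in Knockout and 68.5, 60.0 and 59.9 TPM in Control (-0.09, SE 0.13, limma adjusted p = 0.643). Irf9 had 43.4, 40.0 and 37.4 TPM in Knockout and 41.2, 41.8 and 41.5 TPM in Control (-0.04, SE 0.06, limma adjusted p = 0.617). In all 3 genes Knockout replicate 3 was the lowest of the 6 libraries and the groups overlapped.

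Nmi and Ifi35, whose products bind each other and STAT-family factors, were called higher. Ifi35 had 62.3, 57.2 and 56.3 TPM in Knockout and 47.6, 46.5 and 47.7 TPM in Control (0.30, SE 0.05, limma adjusted p = 0.00881). Nmi had 57.7, 58.5 and 55.6 TPM in Knockout and 44.4, 49.2 and 51.3 TPM in Control (0.24, SE 0.06, limma adjusted p = 0.0274). Neither overlapped. Nmi lost its call when any library other than Knockout replicate 3 or Control replicate 3 was left out, with adjusted p values in limma of 0.0586 to 0.0844, and under upper-quartile scaling.

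The ISG15 system split as well. Isg15, a ubiquitin-like protein that is joined to other proteins and also secreted, had 925, 867 and 675 TPM in Knockout and 1370.0, 1162 and 1186 TPM in Control. The groups did not overlap (-0.60, SE 0.12, limma adjusted p = 0.0132). Usp18 encodes the protease that removes ISG15 and also restrains the interferon receptor. Usp18 had 181, 192 and 177 TPM in Knockout and 149.7, 143 and 145 TPM in Control, higher in all 3 Knockout libraries (0.33, SE 0.05, limma adjusted p = 0.00555). Herc6, the main ISG15 ligase of mice, had 10.9, 9.70 and 8.10 TPM in Knockout and 9.51, 9.31 and 9.21 TPM in Control, with overlapping groups (0.02, SE 0.11, limma adjusted p = 0.885).

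Of 4 genes of ADP-ribosylation 3 were called higher and none lower, beside 18.5% and 10.1% of all tested rows. As for the other roles, this small group was formed with earlier results known, and its share was not tested. Parp12, an antiviral transferase gene, had 125, 124 and 139 TPM in Knockout and 85.3, 95.9 and 94.2 TPM in Control (0.49, SE 0.07, limma adjusted p = 0.00460). Parp9 had 79.7, 77.3 and 81.7 TPM in Knockout and 56.0, 59.8 and 61.5 TPM in Control (0.42, SE 0.05, limma adjusted p = 0.00362). Dtx3l, a ubiquitin ligase gene whose product pairs with PARP9, had 50.4, 46.8 and 47.0 TPM in Knockout and 39.8, 41.1 and 39.0 TPM in Control (0.26, SE 0.05, limma adjusted p = 0.0121). No Knockout value of these 3 genes fell within the Control range. Without Control replicate 3, Dtx3l had an adjusted p of 0.0511 in limma. Parp14, the next coding gene to Dtx3l on chromosome 16, had 70.5, 69.5 and 69.6 TPM in Knockout and 62.0, 67.1 and 64.6 TPM in Control. It was not called although the groups did not overlap (0.11, SE 0.05, limma adjusted p = 0.112). The annotated exons of Parp9 and Dtx3l overlap on opposite strands over 9.4% and 8.0% of their bases, and whether counting used strand is not known from the labels. Exons of Ifi35 (16.8%), Rtp4 (13.9%), Herc6 (13.7%) and Slfn5 (8.8%) also overlap another annotated gene, so some of their reads could belong to it.

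PML nuclear bodies, nuclear dots that hold antiviral factors, gave 2 rises among 3 genes, beside 18.5% of all tested rows called higher. Pml had 45.8, 44.7 and 43.8 TPM in Knockout and 29.3, 28.8 and 28.0 TPM in Control. The gap between the groups was many times the spread within them (0.63, SE 0.05, limma adjusted p = 0.000826). Sp100 had 71.7, 69.8 and 60.5 TPM in Knockout and 55.4, 54.0 and 57.1 TPM in Control (0.27, SE 0.07, limma adjusted p = 0.0291). Its call was lost without any 1 library other than Knockout replicate 3 (fold changes of 0.22 to 0.29) and under upper-quartile scaling. Daxx, a histone chaperone gene, had 77.7, 78.2 and 70.9 TPM in Knockout and 85.5, 75.0 and 72.6 TPM in Control. The groups overlapped (-0.04, SE 0.07, limma adjusted p = 0.739).

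**Figure D3:**
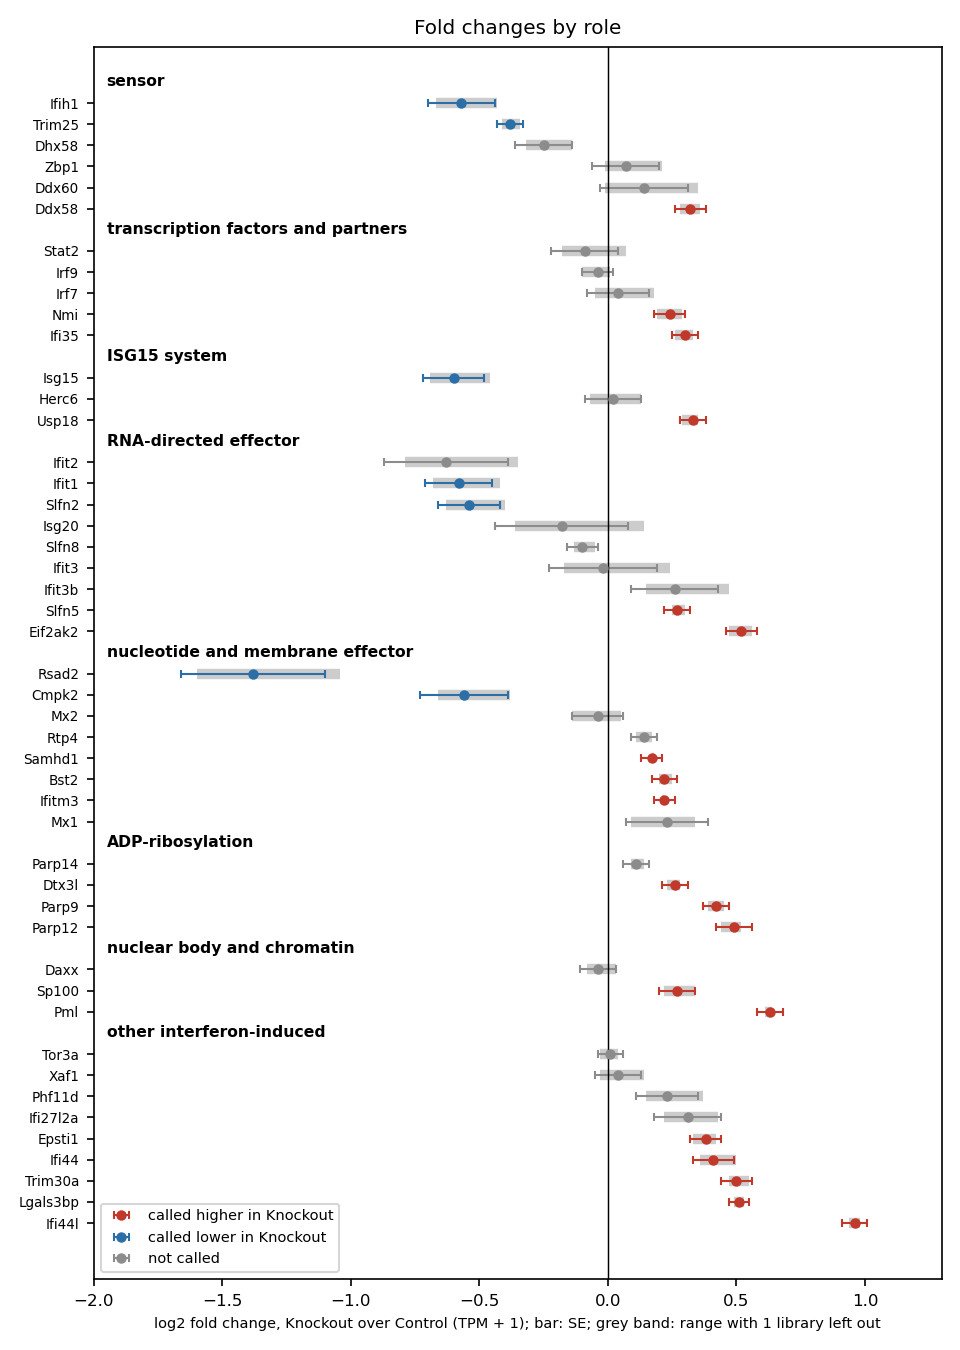
Log2 fold change of Knockout over Control on the log2(TPM + 1) scale for the 47 genes, grouped by role, with SE bars and grey bands for the range over fits with 1 library left out. Red marks the 19 genes called higher, blue the 7 called lower and grey the 21 not called, and none of the 26 called genes has a band that crosses 0.

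Among the remaining interferon-induced genes 5 of 9 were called higher and none lower, beside 18.5% and 10.1% of all tested rows. Ifi44l, an interferon-induced antiviral gene, had the largest rise of the 47. It had 146, 152 and 143 TPM in Knockout and 72.4, 76.8 and 75.4 TPM in Control, nearly double with narrow spread (0.96, SE 0.05, limma adjusted p = 0.000236). Its neighbour on chromosome 3, Ifi44, had 206, 206 and 169 TPM in Knockout and 147, 145 and 144 TPM in Control (0.41, SE 0.08, limma adjusted p = 0.0116). Lgals3bp, a secreted glycoprotein gene, had 447, 439 and 426 TPM in Knockout and 315, 308 and 299 TPM in Control (0.51, SE 0.04, limma adjusted p = 0.00155). All 3 genes were higher in every Knockout library. Trim30a, of a mouse gene family of close copies, had 171, 171 and 156 TPM in Knockout and 111, 122 and 117 TPM in Control (0.50, SE 0.06, limma adjusted p = 0.00295). Epsti1 had 82.8, 87.3 and 76.8 TPM in Knockout and 63.0, 62.7 and 63.6 TPM in Control (0.38, SE 0.06, limma adjusted p = 0.00561). Neither overlapped between the groups.

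Ifi27l2a, a small interferon-induced membrane protein gene, had 639, 689.5 and 517 TPM in Knockout and 568, 429.7 and 487 TPM in Control. Phf11d, one of several neighbouring Phf11 copies, had 144, 139.7 and 105 TPM in Knockout and 117, 108 and 104 TPM in Control. These overlapped through Knockout replicate 3 and were not called (limma adjusted p = 0.116 for Ifi27l2a and 0.191 for Phf11d), while without that library limma called Ifi27l2a (0.43, adjusted p = 0.0347) and Phf11d (0.37, adjusted p = 0.00713) higher. Xaf1, a pro-apoptotic gene, had 62.7, 59.4 and 49.4 TPM in Knockout and 57.2, 54.9 and 53.4 TPM in Control (limma adjusted p = 0.741). Tor3a, an ATPase gene of the torsin family, had 188, 189.7 and 205 TPM in Knockout and 202, 191 and 187 TPM in Control (limma adjusted p = 0.909). Tor3a was 1 of the 8 genes in which replicate 3 was not the lowest Knockout library.

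Replicates of these genes differed more within Knockout than within Control, as did those of all tested rows to a smaller extent. The median ratio of the highest to the lowest Knockout replicate was 1.16 for the 47 genes and 1.16 for all tested rows. In Control the medians were 1.10 and 1.13. The ratio of the highest to the lowest Knockout replicate was larger than the same ratio in Control for 35 of the 47 genes (74.5%), against 56.4% of all tested rows. It reached 1.5 in 7 genes (14.9%, against 15.2% of all tested rows): Rsad2 at 2.17, Isg20 at 2.01, Ifit2 at 1.88, Ifit3 at 1.77, Ddx60 at 1.70, Ifit3b at 1.60 and Mx1 at 1.56. In Control 0 of the 47 genes reached it, against 13.2% of all tested rows, and Cmpk2 was highest at 1.49. Knockout replicate 3 was the lowest Knockout library for 39 of the 47 genes (83.0%), against 44.1% of all tested rows. Control replicate 1 was the highest Control library for 33 (70.2%), against 33.7%. These counts were chosen after the values were seen.

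For 6 genes, namely Ifit3, Ifit3b, Herc6, Irf7, Xaf1 and Ddx60, Knockout replicates 1 and 2 lay above every Control value and Knockout replicate 3 below every Control value. That pattern held for 12.8% of the 47 genes and for 1.87% of all tested rows. The median log2 difference from the Control mean over the 47 genes was 0.22, 0.20 and 0.00 in Knockout replicates 1 to 3, and 0.05, -0.02 and -0.03 in Control replicates 1 to 3. Over all tested rows the medians were 0.05, 0.04 and 0.03 in Knockout and -0.01, 0.02 and -0.00 in Control. With Control replicate 1 and Knockout replicate 3 both left out, a choice made after the values were seen, 30 of the 47 genes were called higher and 8 lower, beside 2347 rows higher and 1355 lower over the whole table. Without Control replicate 1 alone 17 of the genes were called higher and 3 lower, beside 1411 and 716 rows. Without Control replicate 3 the counts were 16 and 4, beside 1312 and 666 rows, so calls over the whole table fell as well.

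**Figure D4:**
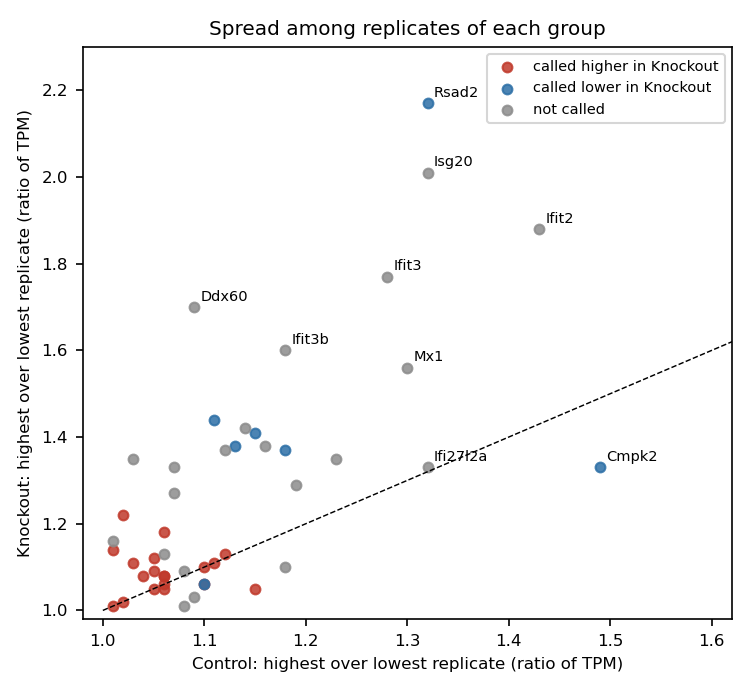
Ratio of the highest to the lowest replicate, in Knockout (vertical axis) against Control (horizontal axis), for the 47 genes, with a dashed line where the ratios are equal and colours for the call. The 35 genes above the line (74.5%, against 56.4% of all tested rows) vary more among Knockout than among Control libraries. The widest are 7 of the 9 named genes, from 1.56 to 2.17.

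Promoters show which of these genes carry the letters of the interferon-stimulated response element close to their start. Of the 47 genes 37 matched a RefSeq promoter entry (GRCm38.p6). In the 250 bases before the start, its core, GAAA followed by any 2 bases and a second GAAA, was present on either strand in 11 of the 37 genes (29.7%) and in 3.46% of 27025 genes. It was found in 3 of 7 genes called lower, 3 of 17 called higher and 5 of 13 not called. The shorter form GAAANNGAA, which contains every match of the longer, was found in 5 of 7 called lower, 4 of 17 called higher and 5 of 13 not called, and in 8.18% of all genes. The gamma-activated site TTCNNNGAA was found in 5 of the 37 genes (13.5%) and in 8.13% of all genes. In Bst2 it overlapped the response element.

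The windows below are those of the 6 called genes with a core match, then of the 2 most abundant others with one, Ifit3 and Stat2, so that the elements of genes that fell and rose can be compared. Capitals mark the bases of that core or its reverse complement, with 15 bases on each side, read 5′ to 3′ on the gene's strand. They lie at chr12:26456548-26456587 (minus strand) for Rsad2, chr4:156200860-156200911 (minus) for Isg15, chr19:34640770-34640828 (plus) for Ifit1 and chr7:104465205-104465244 (minus) for Trim30a. Those of Slfn5, Bst2, Ifit3 and Stat2 lie at chr11:82951932-82951971 (plus), chr8:71537572-71537617 (minus), chr19:34583358-34583431 (plus) and chr10:128270261-128270300 (plus).
Rsad2: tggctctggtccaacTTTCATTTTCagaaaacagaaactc
Isg15: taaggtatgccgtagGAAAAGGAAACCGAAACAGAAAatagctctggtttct
Ifit1: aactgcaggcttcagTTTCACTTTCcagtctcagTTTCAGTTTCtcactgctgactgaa
Trim30a: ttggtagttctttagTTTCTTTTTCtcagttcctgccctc
Slfn5: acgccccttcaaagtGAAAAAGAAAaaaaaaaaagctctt
Bst2: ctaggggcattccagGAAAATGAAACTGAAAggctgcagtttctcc
Ifit3: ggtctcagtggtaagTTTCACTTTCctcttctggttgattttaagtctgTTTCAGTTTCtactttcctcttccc
Stat2: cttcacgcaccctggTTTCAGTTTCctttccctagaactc
Among the genes that fell, Isg15 has 3 overlapping cores from 78 to 57 bases before the start, Ifit1 has 2 between 104 and 76 bases, and Rsad2 has 1 from 120 to 111 bases. Among the genes that rose, Bst2 has 2 overlapping cores from 130 to 115 bases, while Trim30a has 1 from 36 to 27 bases and Slfn5 has 1 from 155 to 146 bases. Ifit3, not called, has 2 between 156 and 113 bases, as Ifit1 does nearer to its start. A match describes the letters and is not shown to be bound.

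The pathway upstream of these genes was read from lists of ligands, receptors and kinases, inducers and inhibitors. None of the 19 listed interferon genes, Ifnb1 among them, had a row, so the ligand was not analysed here. Of 9 genes of interferon receptors and JAK-STAT signalling 2 were called lower (22.2%, against 10.1% of all tested rows). Jak2, a kinase of the interferon-gamma receptor, had 66.1, 63.2 and 47.8 TPM in Knockout and 88.5, 88.8 and 89.9 TPM in Control (-0.60, SE 0.11, limma adjusted p = 0.0108). Tyk2, the kinase bound to IFNAR1, had 38.0, 36.8 and 29.4 TPM in Knockout and 48.1, 44.7 and 42.5 TPM in Control (-0.37, SE 0.10, limma adjusted p = 0.0323). The groups of both genes did not overlap. Jak2 kept its call in all 14 alternative fits. Tyk2 lost its call without Knockout replicate 2 (limma adjusted p = 0.0513), Control replicate 1 (0.102), Control replicate 2 (0.0795) or Control replicate 3 (0.0626).

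Of 23 genes that lead to interferon production 5 were called higher (21.7%, against 18.5% of all tested rows), 4 lower (17.4%, against 10.1%) and 14 not. Among the 4 with the largest changes were Ticam1, which encodes TRIF, and Ticam2, which encodes its bridging adaptor TRAM. Ticam1 had 54.6, 51.1 and 45.5 TPM in Knockout and 81.7, 70.8 and 69.2 TPM in Control (-0.54, SE 0.09, limma adjusted p = 0.00689). Ticam2 had 20.0, 18.6 and 14.0 TPM in Knockout and 29.0, 29.0 and 28.2 TPM in Control (-0.69, SE 0.12, limma adjusted p = 0.00810). Both fell with no overlap, and Knockout replicate 3 was the lowest library for each. Ikbke (-0.35, SE 0.06, limma adjusted p = 0.00755) and Tank (-0.33, SE 0.05, limma adjusted p = 0.00672) of this list were also called lower. Further genes of the same branch, named after their values were seen, differed. Traf3, a ubiquitin ligase gene downstream of TRIF, was called higher (0.43, SE 0.10, limma adjusted p = 0.0179), while Tbk1 (-0.10, SE 0.05, limma adjusted p = 0.212) and Irf3 (0.04, SE 0.05, limma adjusted p = 0.617) were not called. The largest rises of this list were in Tlr7, an endosomal receptor of single-stranded RNA, at 80.8, 82.1 and 97.2 TPM in Knockout and 50.9, 61.9 and 58.4 TPM in Control (0.59, SE 0.10, limma adjusted p = 0.00679), and in Cgas. Cgas, the sensor of cytosolic DNA, had 43.0, 43.0 and 49.9 TPM in Knockout and 28.0, 32.3 and 30.3 TPM in Control (0.57, SE 0.08, limma adjusted p = 0.00478). For both genes replicate 3 was the highest Knockout library.

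Of 14 tested genes on the list of inhibitors of interferon signalling, out of 15 with a row, 2 were called higher (14.3%), 2 lower (14.3%) and 10 not. The list also holds Uba7, an enzyme gene of the ISG15 system, which was not called (0.07, SE 0.12, limma adjusted p = 0.719). Over all tested rows the shares were 18.5% higher and 10.1% lower. Tnfaip3, which encodes the ubiquitin editor A20, had 42.6, 40.0 and 38.3 TPM in Knockout and 61.1, 53.7 and 53.6 TPM in Control (-0.47, SE 0.07, limma adjusted p = 0.00559). Nlrc5, an activator of MHC class I genes that also restrains innate signalling, had 31.6, 30.1 and 24.6 TPM in Knockout and 39.5, 34.1 and 35.4 TPM in Control (-0.33, SE 0.10, limma adjusted p = 0.0471). Irf2, a repressor at response elements, had 15.3, 14.5 and 14.3 TPM in Knockout and 11.4, 11.8 and 12.4 TPM in Control (0.29, SE 0.06, limma adjusted p = 0.0171). The phosphatase gene Ptpn11 had 72.2, 72.6 and 76.8 TPM in Knockout and 62.2, 65.7 and 62.6 TPM in Control (0.21, SE 0.05, limma adjusted p = 0.0185). All 4 had groups that did not overlap. Tnfaip3 kept its call in all 14 alternative fits. Nlrc5 lost its call in 7, among them each fit without 1 library except Knockout replicate 1. Irf2 lost it without Knockout replicate 1 or 2 or Control replicate 1 or 2 (limma adjusted p = 0.0509 to 0.0534). Ptpn11 lost it without Knockout replicate 2 or Control replicate 1 or 3 (limma adjusted p = 0.0518 to 0.0713).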

How the data were processed

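RNA was sequenced in 3 Knockout and 3 Control libraries, grouped by their titles. The authors deposited 1 table of TPM for 17217 rows, a unit read from the values, whose columns summed to 991721 to 998572, with 0 columns of per-sample values left unmapped. Per the submitters' processing notes, GRCm39 and DESeq2 took part, in a role not stated. Aligner, counting tool and annotation: not given in the sources used here.

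Reads were recovered as TPM times union exon length (GENCODE M21, an earlier build used for lengths and exon overlap alone) divided by each library's step. Within 0.02 read, 16508 rows (95.9%) were whole at the annotated length, 681 more were whole within 0.003 read at another length, and 28 at none. Of the 47 genes 46 were whole at the annotated length and Isg15 was whole at 703 bp rather than 756 bp. Counts per gene and library ran from 123 to 56554 recovered reads, and a single read per kb of exon equalled 0.0558 to 0.0883 TPM.

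The 13034 rows averaging 1 TPM or more were tested on log2(TPM + 1), which understates changes of low genes, with limma 3.58.1 in R 4.3.3 (lmFit, eBayes with trend and robust), two-sided. P-values were adjusted by Benjamini-Hochberg across these rows and called under 0.05. The fitting code was tested on simulated data. Alternatives were another pseudocount, no filter, 2 scalings, limma-voom on recovered reads, a replicate block, leaving out each library and leaving out rows that are not whole reads. A further alternative, not planned, left out Control replicate 1 and Knockout replicate 3 together. The genes, lists and roles were chosen with earlier results of these data known. All listed genes with a row are named, with the 4 largest called changes of each pathway list, except for a result not reported here. Neighbours come from RefSeq gene order (GRCm38.p6), which held 45 of the 47 genes.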

Additional observations from a re-analysis of the deposited data

How the results depend on the processing

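In 14 alternative fits, 14 of the 19 genes called higher and 3 of the 7 called lower (Rsad2, Isg15 and Trim25) kept their calls throughout, and none of the 26 changed sign. Among the 14 was the unplanned fit without Control replicate 1 and Knockout replicate 3, in which 0 of the calls were lost. Leaving out 1 library gave 15 to 23 genes higher, 3 to 6 lower and a median log2 fold change of 0.11 to 0.22, against 1312 to 2094 rows higher and 666 to 1222 lower over the whole table and -3.23 to -3.19 for Cd74. The Knockout values of Cd74 are not whole reads, so its range does not check the size of that difference. Leaving out Control replicate 1 and Knockout replicate 3 together, chosen after seeing the data, gave 30 genes higher and 8 lower, beside 2347 and 1355 rows. The fall of Cmpk2 was also not called with no filter (limma adjusted p = 0.0625). The replicate block gave 19 genes higher and 8 lower (2331 and 1380 rows in all), with Dhx58 added. Over the tested rows, same-numbered libraries deviated with correlations of 0.134, -0.077 and 0.031. With 3 libraries per group these correlations cannot decide whether the libraries were paired.

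Of the 21 genes not called 12 changed sign in some fit, and the cause was not tested. Under median-of-ratios scaling these were Tor3a (-0.03), Herc6 (-0.02) and Irf7 (-0.0034). Under upper-quartile scaling they were Tor3a (-0.04), Herc6 (-0.02), Irf7 (-0.01) and Xaf1 (-0.01), and under limma-voom Tor3a (-0.02). With both libraries left out they were Isg20 (0.26), Stat2 (0.13), Irf9 (0.001), Mx2 (0.08), Daxx (0.08) and Ifit3 (0.34). With 1 library left out at a time, fold changes ran from -0.07 to 0.13 for Herc6, -0.05 to 0.18 for Irf7, -0.03 to 0.14 for Xaf1, -0.01 to 0.21 for Zbp1 and -0.01 to 0.35 for Ddx60. They ran from -0.36 to 0.14 for Isg20, -0.18 to 0.07 for Stat2, -0.10 to 0.01 for Irf9, -0.14 to 0.05 for Mx2, -0.08 to 0.03 for Daxx, -0.17 to 0.24 for Ifit3 and -0.03 to 0.04 for Tor3a. With 3 libraries per group and 1 batch per genotype, p-values describe these libraries.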
